A study of Mus musculus with 9 samples.

Results

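The main olfactory epithelium of mice that lack the whole Ms4a gene cluster was compared with that of wild-type mice by RNA sequencing. The comparison took the 3 Ms4a cluster KO and the 3 wild-type mice of a series of 9 mice and covered every gene that reached 10 counts over all 9 mice together, which left 23225 of 55291 deposited genes, 23210 of them outside the deleted span. This span is taken here as chromosome 19 from the first to the last gene with an Ms4a symbol, 10962293 to 11640851 (GRCm38). Whether every gene inside it is deleted was not tested. All mice were 8 to 12 weeks old. The labels give the wild-type mice as C57BL/6 littermates, and the Ms4a cluster KO line was made by CRISPR/Cas9 deletion of the tandem array of Ms4a genes in the whole animal. The other 3 mice, of the Ms4a6c KO genotype, entered the fit to steady its estimate of the spread between mice and are quoted where their values stand beside a named gene. The labels call the mice of a genotype biological replicates.

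The olfactory epithelium is a stratified tissue. Olfactory sensory neurons each express 1 odorant receptor gene and signal through a cyclic AMP cascade of a G protein, an adenylyl cyclase and a cation channel, while basal stem cells replace them and sustentacular cells support them and detoxify inhaled compounds. MS4A proteins span the membrane 4 times, and several of them are found in necklace neurons, a small set of sensory neurons that use cyclic GMP signalling and carry the receptor guanylate cyclase encoded by Gucy2d. Outside the nose, members of the family mark B cells, mast cells and macrophages. The comparison asks which other genes of the tissue differ when the family is gone.

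The 6 libraries held between 14250135 and 20047533 expected counts. A count of 3 in a library, taken as the limit of detection, came to between 0.150 and 0.299 CPM, the unit used throughout, which is a count relative to the library size after TMM scaling in edgeR. This limit covers counting error only. The 10 tested genes with an Ms4a symbol had a summed level of 15.8, 16.0 and 16.6 CPM in the wild-type mice and 0 in all 3 knockout mice, as the labels require. Several libraries stood apart from their group. Secretory transcripts of the nasal glands were high in 1 library of each genotype, called gland-rich here. Their summed level was 318400 CPM in wild-type replicate 1 and 340700 CPM in Ms4a cluster KO replicate 2 against 15030 to 27460 CPM in the other 4 mice. Skeletal muscle transcripts were high in wild-type replicate 2 and in knockout replicate 3. The Y-linked gene Ddx3y was at 41.4, 0.444 and 0.455 CPM in wild-type mice and at 0, 0 and 37.1 CPM in knockout mice. The gland-rich pair thus holds the wild-type mouse with high Ddx3y but not the knockout mouse with it. Without that pair the groups are not matched in Ddx3y, and what this adds to those values was not tested. Values without the gland-rich pair or without a single mouse stand beside several lists and genes below.

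Outside the deleted span, 1 gene passed the adjusted threshold in the edgeR fit of all 9 mice. Wdfy1, whose protein recruits the adaptor TRIF to Toll-like receptors 3 and 4, rose in the knockout. Its level was 39.8, 41.5 and 47.7 CPM in the 3 wild-type mice and 121, 99.2 and 113 CPM in the 3 knockout mice. All knockout values lay above all wild-type values, and the lowest of them was over 2 times the highest wild-type value. The group means were 43.0 ± 4.17 and 111 ± 11.0 CPM (SD, n = 3 mice each), a fitted log2 fold change of 1.37 ± 0.09 (SE; quasi-likelihood test of edgeR, Benjamini-Hochberg adjusted p = 0.000527). As a fold, this is 2.58, with a 95% interval of 2.26 to 2.96. The 3 Ms4a6c KO mice had 45.4, 47.3 and 48.0 CPM, next to the wild-type values. Wdfy1 lies on chromosome 1 from 79702262 to 79776143 (mouse build GRCm38), far from the deleted cluster on chromosome 19. Without the 2 gland-rich libraries its log2 fold change was 1.39 (edgeR adjusted p = 0.000566).

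The whole fit called 6 genes at an adjusted p under 0.05, or 0.0258% of those tested. Of these, 1 was higher (0.00431%) and 5 were lower (0.0215%), and the 5 lower genes lie in the deleted span. At an unadjusted p under 0.05 there were 522 higher genes (2.25%) and 623 lower genes (2.68%), 4.93% in all. All 3 knockout values lay above all 3 wild-type values for 1094 genes (4.71%) and below them for 1195 genes (5.15%), 9.86% in all. The median log2 fold change over all tested genes was 0.01. DESeq2, the count model that the authors used, called 18 of 21780 genes (0.0826%). Without the 2 gland-rich libraries, which leaves 2 mice against 2, edgeR called 8 of 22710 genes (0.0352%), and outside the deleted span these were Wdfy1, Alad and Olfr44. Groups of 2 separate more easily than groups of 3, and 21.3% of genes were then separate with higher and 20% with lower knockout values.

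**Figure D1:**
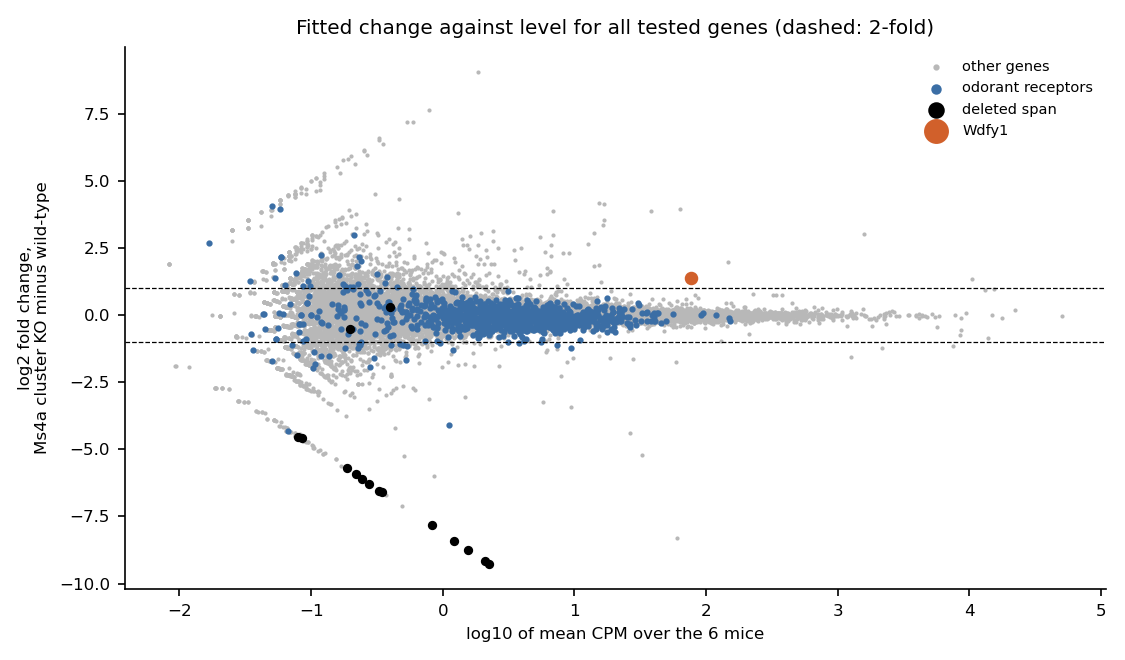
Each point is a tested gene, placed by the log10 of its mean level over the 6 mice (x axis, CPM) and its fitted log2 fold change (y axis, Ms4a cluster KO minus wild-type). Wdfy1, at 1.37, stands outside the 2-fold lines at a level where other genes are packed near 0, the genes of the deleted span (black) reach -9.29, and odorant receptors (blue) spread around a median of -0.08. The slanting outer bands are genes with 0 counts in a group, and 13 tested genes at 0 in all 6 mice are not drawn.

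A further 11 genes outside the deleted span passed the threshold with DESeq2 and not in the edgeR fit of all 9 mice, and their values are given without a call. Ptgds encodes the lipocalin-type synthase of prostaglandin D2. It was at 129, 145 and 118 CPM in wild-type mice and at 169, 194 and 177 CPM in knockout mice (log2 fold change 0.46 ± 0.08, SE, edgeR adjusted p = 0.476, DESeq2 adjusted p = 0.00157). Necab1, a neuronal calcium-binding protein gene, was at 67.9, 74.2 and 75.4 CPM against 58.1, 51.6 and 53.6 CPM (-0.41 ± 0.07, edgeR adjusted p = 0.321, DESeq2 adjusted p = 0.00293). Ptbp3, which encodes an RNA-binding regulator of splicing, was at 198, 202 and 204 CPM against 176, 173 and 167 CPM (-0.22 ± 0.05, edgeR adjusted p = 0.744). For all 3 genes the 2 groups did not overlap.

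The Ms4a6c KO mice did not take the same place for these genes as for Wdfy1. Ptgds was at 206, 194 and 189 CPM in them and Necab1 at 54.0, 50.9 and 47.7 CPM, so for both genes the mice of that line lay outside the wild-type range on the side of the cluster knockout. Ptbp3 was at 183, 181 and 182 CPM, between the other groups. The wild-type mice are shared by both comparisons, so these values are not a separate test.

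Gm37206, a single transcript of unproven status on chromosome 19 from 4762103 to 4765171, and Gm44170, an antisense transcript on chromosome 6, were at 0 in every wild-type mouse. Gm37206 was at 1.15, 1.30 and 0.752 CPM in the knockout mice, at least 5.81-fold above the limit of 3 counts per wild-type library (edgeR adjusted p = 0.234, and 0.0286 with no filter on low counts, DESeq2 adjusted p = 0.00154). Gm44170 was at 0.952, 0.698 and 0.301 CPM, at least 3.54-fold above it, and whether the counting used strand is not given in the sources used here. Gm45837 was also at 0 in wild-type mice but at 9.07, 0 and 2.06 CPM in knockout mice, so its DESeq2 call rests on 2 libraries. It overlaps the necklace neuron marker Pde2a on the same strand, and the 2 may share reads. Gm50388 was at 0.569, 0.499 and 0.512 CPM in wild-type mice and at 4.21, 1.79 and 3.61 CPM in knockout mice. These transcripts were not particular to the cluster knockout. The Ms4a6c KO mice had 0.492, 1.43 and 1.15 CPM of Gm37206 and 0.328, 0.93 and 0.51 CPM of Gm44170. They had 0, 9.80 and 0 CPM of Gm45837 and 4.02, 1.675 and 0.573 CPM of Gm50388.

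**Figure D2:**
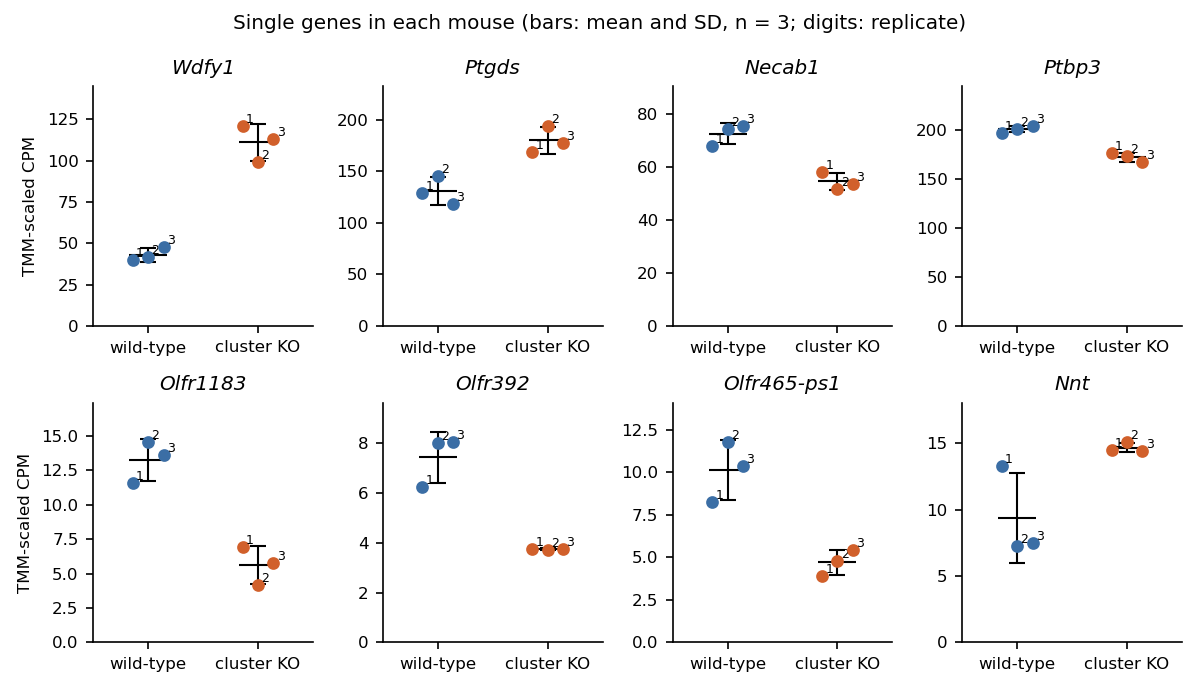
Level of 8 genes in each mouse (y axis, TMM-scaled CPM from 0), with the mean and SD of the 3 mice of a genotype as bars and the replicate number beside each point. The knockout mice (orange) lie between 99.2 and 121 CPM for Wdfy1 and the wild-type mice (blue) between 39.8 and 47.7 CPM, while wild-type replicate 1 sits near the knockout mice for Nnt.

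A mean of at least 1 CPM over the 6 mice was reached by 16529 tested genes. Of those outside the deleted span, 53 were higher and 105 were lower with an unadjusted p under 0.01 and groups that did not overlap. This rule serves to choose genes to name, and the 2 counts are not read as a result. The 10 largest differences above 0 included Wdfy1 and 9 genes short of the adjusted threshold with edgeR, of which Gm50388 passed it with DESeq2 (adjusted p = 0.0464). Vcam1, an adhesion molecule of activated endothelium and of stromal and stem cells, was at 6.61, 5.49 and 7.11 CPM in wild-type mice and at 11.4, 13.3 and 7.67 CPM in knockout mice. Hepacam, a glial adhesion molecule, was at 1.92, 2.61 and 2.67 CPM against 3.46, 6.48 and 3.46 CPM. Both had their highest value in knockout replicate 2, a gland-rich library. Nat1, an arylamine N-acetyltransferase, was at 3.62, 2.88 and 2.96 CPM against 5.31, 5.28 and 5.51 CPM (log2 fold change 0.77 ± 0.16, edgeR adjusted p = 0.73). Sgca, Rgs14 and Afmid, which encode a sarcoglycan, a regulator of G-protein signalling and an enzyme of tryptophan breakdown, had log2 fold changes of 0.98, 0.89 and 0.56. The others were Gm50388, Gm20431 and the pseudogene Rpl38-ps2.

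The 10 largest differences below 0 fell into 3 kinds. The first was odorant receptors, with 6 genes described below. The second was structural noncoding RNA. Rn7s1, an RNA of the signal recognition particle, was at 22.2, 32.6 and 29.5 CPM in wild-type mice and at 9.97, 9.17 and 8.57 CPM in knockout mice (log2 fold change -1.61 ± 0.49, edgeR adjusted p = 0.968). Fitted on the 6 mice of the 2 genotypes alone, it passed the threshold, with the same log2 fold change, an SE of 0.15 and an edgeR adjusted p of 0.0385. Rn7sk, which holds the elongation factor P-TEFb inactive, was at 15.5, 16.0 and 12.6 CPM against 5.96, 5.28 and 3.31 CPM. In the Ms4a6c KO mice, which the fit of 2 genotypes leaves out, Rn7s1 was at 7.05, 34.7 and 10.1 CPM. Rn7sk was at 3.07, 14.5 and 3.82 CPM in them. Within that 1 genotype, both RNAs thus lay near the wild-type values in replicate 2 and near the cluster knockout values in the others. These RNAs carry no poly-A tail, the libraries were made from poly-A RNA, and near-identical copies of both genes may share their reads. The remaining 2 were unnamed transcripts, one of them Gm13394. It was at 180, 4.83 and 4.27 CPM in wild-type mice and at 1.65, 3.09 and 0.852 CPM in knockout mice, so the size of its difference rests on wild-type replicate 1, though the groups do not overlap without that mouse either. The Ms4a6c KO mice had 344, 186 and 173 CPM.

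Mature olfactory sensory neurons kept their program within narrow limits. None of 17 tested markers was called, and the intervals of all 17 log2 fold changes lay inside 2-fold (median -0.06). Of the 17 fitted changes, 14 were below 0 (82.4%, beside 48.2% of all tested genes). In bulk tissue, fewer cells of a type and less RNA per cell cannot be told apart. Omp, the marker of mature sensory neurons, was at 4501, 5152 and 4915 CPM in wild-type mice and at 5215, 4018 and 4778 CPM in knockout mice, with a 95% interval of the log2 fold change from -0.34 to 0.22. Cnga2, a subunit of the cation channel opened by cyclic AMP, was at 813, 1052 and 992 CPM against 989, 780 and 906 CPM. For both genes the lowest value of each group belonged to its gland-rich library. Pde1c, a phosphodiesterase of the cilia, was the one marker with an unadjusted p under 0.05, at 438, 449 and 439 CPM against 415, 346 and 383 CPM (log2 fold change -0.21 ± 0.08, edgeR adjusted p = 0.968).

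None of the 15 genes of receptor choice and trafficking had an unadjusted p under 0.05, and all 15 intervals lay inside 2-fold. Lhx2 and Ldb1, which together hold the enhancers of odorant receptor genes in a hub, had log2 fold changes of 0.03 and 0.05. Kdm1a, the demethylase that opens the first receptor gene, was at 64.5, 71.3 and 69.9 CPM against 72.5, 70.9 and 73.9 CPM. Ddit3, a transcription factor of the unfolded protein response, which a newly chosen receptor sets off, was at 28.1, 28.4 and 29.8 CPM in wild-type mice and at 39.7, 28.9 and 37.6 CPM in knockout mice (0.31 ± 0.12, edgeR adjusted p = 0.968). With all mice it alone of the 12 genes of that response had an unadjusted p under 0.05, and the list's median was 0.04. The median was 0.33 without wild-type replicate 1. With the gland-rich libraries left out, 3 of the 12 were higher at that limit (25%), beside 4.39% of all genes.

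Necklace neurons, which carry several MS4A proteins, could be followed through 7 markers. None had an unadjusted p under 0.05, and 4 of the 7 intervals lay inside 2-fold. Gucy2d was at 2.63, 2.38 and 1.93 CPM in wild-type mice and at 2.46, 1.69 and 3.21 CPM in knockout mice, with a 95% interval from -0.53 to 0.75. Car2, the carbonic anhydrase of these neurons, which other cells also express, was at 73.3, 70.7 and 75.4 CPM against 83.1, 71.6 and 87.4 CPM (interval -0.03 to 0.32). Pde2a, their cyclic GMP-stimulated phosphodiesterase, was at 13.2, 16.9 and 17.1 CPM against 9.82, 17.8 and 15.3 CPM (interval -0.85 to 0.55). The groups overlapped for all 3 genes. The annotated gene Gm45837 overlaps Pde2a on the same strand of chromosome 7, so reads may be divided between them by the counting. Gm45837 was at 0 in wild-type mice and at 9.07, 0 and 2.06 CPM in knockout mice, so the values of Pde2a alone may not give the level of that locus. Cnga3, the channel subunit of these cells, was at or below 0.455 CPM in all 6 mice, so a change in it was not detectable at this depth.

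Other small sensory neuron types gave few counts. Gucy1b2, a soluble guanylate cyclase subunit that marks oxygen-sensing neurons, was at 1.92, 2.11 and 2.33 CPM against 1.50, 1.99 and 2.31 CPM. Trpc2, a channel of the same neurons and of vomeronasal neurons, was at 4.41, 4.88 and 2.05 CPM against 1.80, 2.29 and 2.21 CPM (log2 fold change -0.85 ± 0.34, edgeR adjusted p = 0.968). Wild-type replicate 3 lay among the knockout values.

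Among immature neuron genes, all 12 intervals lay inside 2-fold and none had an unadjusted p under 0.05. Gap43, the growth cone protein of young axons, was at 50.0, 87.2 and 82.9 CPM against 84.8, 65.9 and 81.5 CPM, and again the gland-rich library of each group was its lowest. The axon guidance genes numbered 17, with all intervals inside 2-fold. In this list the ligand Efna5 was at 35.2, 43.4 and 46.6 CPM in wild-type mice and at 32.0, 26.7 and 31.3 CPM in knockout mice (-0.47 ± 0.11, edgeR adjusted p = 0.784). Epha5, a receptor for such ligands, was at 75.3, 46.8 and 47.4 CPM against 81.2, 81.3 and 63.6 CPM (0.42 ± 0.18, edgeR adjusted p = 0.968). For Efna5 the groups did not overlap, whereas wild-type replicate 1 lay within the knockout range for Epha5.

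Of 15 activity-dependent genes, 3 had an unadjusted p under 0.05, all below 0 (20%, beside 2.68% of all genes). Fos was at 6.40, 9.49 and 8.70 CPM against 4.01, 7.18 and 2.46 CPM, Fosb had a log2 fold change of -1.40 ± 0.61, and Dusp1 of -0.22 ± 0.10, none of them past the adjusted threshold. S100a5, whose level in sensory neurons follows odor-driven activity, was at 834, 720 and 646 CPM against 757, 578 and 718 CPM. Over the list, 7 fitted changes lay above 0 and 8 below. Egr1, Junb, Arc and Ier2 were among those above, with log2 fold changes of 0.01, 0.11, 0.07 and 0.13. The list's median was -0.02, and -0.33 without the gland-rich libraries. Genes of the dorsal and ventral zones of the epithelium all had intervals inside 2-fold. The ventral transcription factor Nfia was at 38.3, 30.8 and 28.8 CPM against 25.6, 30.3 and 21.6 CPM (log2 fold change -0.34 ± 0.14), and knockout replicate 2 lay inside the wild-type range. Ncam2, an adhesion molecule of ventral axons, was at 76.3, 82.2 and 77.7 CPM against 75.4, 69.0 and 72.0 CPM without overlap.

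Odorant receptors made up 1109 tested genes of 1408 listed. None was called in the edgeR fit of all 9 mice. DESeq2 called Olfr1183, Olfr465-ps1, Olfr392 and Olfr44, and edgeR called Olfr1183 and Olfr44 under other settings, as described below. The summed level of the tested receptors was 6618, 7106 and 6604 CPM in wild-type mice and 6697, 5756 and 6332 CPM in knockout mice, and the groups overlapped. Divided by the summed level of the 17 mature neuron markers, it was 0.334, 0.320 and 0.309 against 0.306, 0.325 and 0.317. Single receptors leaned to lower levels, since 61.4% of fitted changes were negative against 48.2% of all tested genes, and the median was -0.08. The 17 mature neuron markers leaned the same way, with 82.4% negative and a median of -0.06, so the lean was not particular to receptors. At an unadjusted p under 0.05, 18 were higher (1.62%) and 83 were lower (7.48%), beside 2.25% and 2.68% of all genes. Without the gland-rich libraries, 37 were higher (3.36%) and 84 were lower (7.62%), beside 4.39% and 4.31% of all genes, and the median was -0.04.

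The share of receptors that were lower at that limit moved with their level, from 0 of 214 under 1 CPM to 32 of 514 between 1 and 5 CPM, 28 of 218 between 5 and 10 CPM (12.8%) and 23 of 163 above 10 CPM (14.1%). By chromosome, it was 30 of 287 on chromosome 2 (10.5%), 14 of 234 on chromosome 7 (5.98%) and 9 of 124 on chromosome 9 (7.26%). Intervals lay inside 2-fold for 683 receptors. The share of all genes at each level was not computed, and intervals are wider at low counts. For genes outside the deleted span, the median distance from fitted change to interval end was 1.58 between 0.1 and 1 CPM. Between 10 and 100 CPM that distance was 0.204, both in log2 units. Whether the rise with level is particular to receptors was not tested. The receptors are not independent of each other, since all share the same 6 libraries, and reads of near-identical receptors can be divided between them by the counting.

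The receptors with the smallest p were Olfr392, Olfr1183 and Olfr465-ps1. Olfr1183, on chromosome 2 from 88454867 to 88469199, was at 11.6, 14.5 and 13.7 CPM in wild-type mice and at 6.96, 4.19 and 5.76 CPM in knockout mice (log2 fold change -1.21 ± 0.20, edgeR adjusted p = 0.234, DESeq2 adjusted p = 4.78e-05). Its edgeR adjusted p was 0.0433 with no filter on low counts and 0.00372 with the level of the gland gene Bpifb9b as a covariate. Olfr392, on chromosome 11 from 73811740 to 73817049, was at 6.25, 7.99 and 8.02 CPM against 3.76, 3.69 and 3.76 CPM (-0.99 ± 0.16, edgeR adjusted p = 0.234, DESeq2 adjusted p = 0.00622). Olfr465-ps1, named as a pseudogene, on chromosome 13, was at 8.25, 11.8 and 10.3 CPM against 3.91, 4.78 and 5.41 CPM (-1.11 ± 0.19, edgeR adjusted p = 0.321, DESeq2 adjusted p = 0.00154). In all 3 the groups were separate. The Ms4a6c KO mice had 9.18, 7.51 and 10.9 CPM of Olfr1183 and 4.55, 5.21 and 4.08 CPM of Olfr392. They had 7.46, 5.46 and 6.82 CPM of Olfr465-ps1. For all 3 receptors these values lay between the other genotypes, so below the wild-type range.

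Olfr1202, Olfr1277 and Olfr1323 followed, with log2 fold changes of -1.01, -0.88 and -0.98. The Ms4a6c KO mice also lay below the wild-type range for these receptors. They had 2.62, 1.985 and 2.23 CPM of Olfr1202, 3.935, 3.60 and 3.695 CPM of Olfr1277 and 3.115, 3.23 and 3.50 CPM of Olfr1323. The wild-type mice are shared by both comparisons. Olfr44 was at 4.33 and 1.93 CPM in wild-type replicates 2 and 3 and at 0.0711 CPM in wild-type replicate 1, against 0.100, 0.0997 and 0.150 CPM in knockout mice (log2 fold change -4.09, edgeR adjusted p = 0.968, DESeq2 adjusted p = 0.026). Without wild-type replicate 1 its edgeR adjusted p was 0.0125, with a log2 fold change of -4.63. Without both gland-rich libraries the edgeR adjusted p was 0.0408. The Ms4a6c KO mice had 2.95, 3.35 and 3.44 CPM of Olfr44, between wild-type replicates 2 and 3.

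Receptors of other families were mostly near the limit of detection. The trace amine-associated receptors, which sense amines, had 14 tested genes of 16, a median of -0.27 and 1 gene with an unadjusted p under 0.05, Taar7b (1.35, 1.94 and 2.33 CPM against 1.35, 1.10 and 0.952 CPM). Only 9 of 231 type 1 and 14 of 124 type 2 vomeronasal receptors, 2 of 8 formyl peptide receptors and 3 of 43 taste receptors passed the count filter, and none of these had an unadjusted p under 0.05.

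Stem and supporting cells held their programs. All 14 globose basal cell genes and 10 of 11 horizontal basal cell genes had intervals inside 2-fold. Krt5, the keratin of the resting stem cells, was at 54.8, 55.5 and 56.3 CPM against 59.5, 46.5 and 56.5 CPM. Kit, the receptor tyrosine kinase of progenitors and mast cells, was at 13.3, 13.4 and 14.8 CPM against 15.7, 16.1 and 17.2 CPM (log2 fold change 0.24 ± 0.08, edgeR adjusted p = 0.968). Its groups did not overlap. Tex15 was at 85.1, 84.3 and 80.0 CPM against 70.6, 76.2 and 71.5 CPM.

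Sustentacular cell genes had 14 of 15 intervals inside 2-fold, and xenobiotic metabolism genes 25 of 25. Cyp2a5, an abundant nasal cytochrome P450, was at 9103, 9271 and 9138 CPM in wild-type mice and at 9197, 9118 and 10520 CPM in knockout mice. Cyp2g1, an olfactory cytochrome P450, was at 4567, 4678 and 4582 CPM against 4401, 4383 and 4833 CPM. Both were even across mice, the gland-rich libraries included, though Cyp2a5 may share reads with its near copy Cyp2a4. Cyp2e1 was at 85.7, 50.4 and 60.0 CPM against 94.2, 86.8 and 86.5 CPM (0.45 ± 0.20, edgeR adjusted p = 0.968), and Ermn, a cytoskeletal protein gene, was at 128, 164 and 160 CPM against 131, 118 and 110 CPM (-0.33 ± 0.10, edgeR adjusted p = 0.968).

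Among 11 tuft and microvillous cell genes, 6 intervals lay inside 2-fold. The tuft and microvillous cell channel Trpm5 was at 8.32, 10.7 and 10.5 CPM against 10.7, 10.1 and 8.92 CPM. In the same list, Alox5, the enzyme that begins leukotriene synthesis, was at 4.48, 4.44 and 4.49 CPM against 5.71, 5.08 and 5.86 CPM, while the acetylcholine-synthesizing enzyme Chat did not exceed 0.698 CPM. Foxi1, the transcription factor of ionocytes, was at 19.8, 23.1 and 22.6 CPM against 25.9, 21.4 and 27.5 CPM. All 17 genes of motile ciliated cells had intervals inside 2-fold.

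The gland lists differed in spread. Genes of Bowman's glands, which lie under the olfactory epithelium, had 9 of 10 intervals inside 2-fold, with Sox9 at 22.2, 15.5 and 15.8 CPM against 15.2, 26.3 and 14.8 CPM. Their median was 0.02 and none had an unadjusted p under 0.05. Without the gland-rich libraries the median was 0.15 and 3 of 10 were higher at that limit (30%), beside 4.39% of all genes. The nasal gland secretions varied more within each genotype than between them, and 10 of 26 intervals lay inside 2-fold. Their median was -0.00, 0.77 without wild-type replicate 1 and 0.07 without both gland-rich libraries. Bpifb9b, a secreted lipid-binding protein gene, was at 148500, 1506 and 3473 CPM in wild-type mice and at 235, 144700 and 2980 CPM in knockout mice. The odorant-binding protein gene Obp1a was at 25730, 1102 and 45.5 CPM against 9.27, 48920 and 2758 CPM. Both were highest in wild-type replicate 1 and knockout replicate 2, and their 95% intervals, -4.62 to 4.52 and -3.77 to 5.66, leave changes of many fold in either direction possible. Near-identical members such as Obp1a and Obp1b may share reads.

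The lipocalins Lcn3 and Lcn4 had the largest differences of the list, 3.95 ± 1.59 and 3.87 ± 1.63 (edgeR adjusted p = 0.968 for both). Lcn3 was at 5.33, 17.3 and 0.171 CPM in wild-type mice and at 0.952, 70.0 and 284 CPM in knockout mice, so knockout replicates 2 and 3 were high and knockout replicate 1 lay among the wild-type values. The log2 fold change of Lcn3 was 4.02 and the log2 fold change of Lcn4 was 3.56 without the gland-rich libraries. By contrast, Bpifa1, also a secreted airway protein gene, was at 7836, 10560 and 8420 CPM against 9525, 7255 and 8249 CPM.

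**Figure D3:**
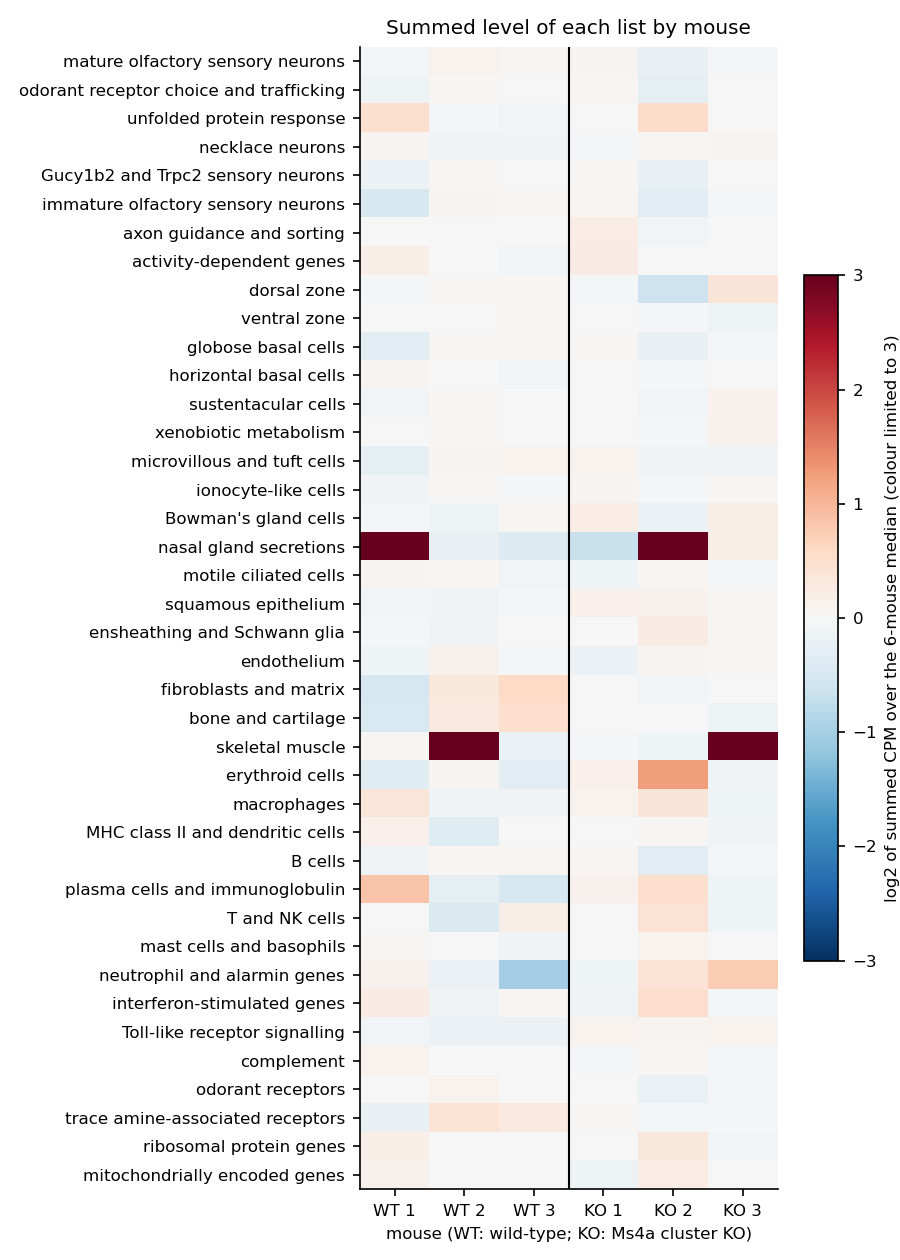
Summed level of each gene list in each mouse, as the log2 of its ratio to the median of the 6 mice (colour limited to 3 in either direction, rows are lists and columns are mice). Nasal gland secretions stand out in WT 1 and KO 2 and skeletal muscle in WT 2 and KO 3, 1 mouse of each genotype in both cases, while most neuronal and supporting cell rows are pale.

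Macrophage markers had a narrow spread. All 21 intervals lay inside 2-fold, the median was 0.12, and 5 genes had an unadjusted p under 0.05, all above 0 (23.8%, beside 2.25% of all genes), with none past the adjusted threshold. At that limit 4 were higher (19.0%) and 2 were lower (9.52%) without the gland-rich libraries, beside 4.39% and 4.31% of all genes. The mannose receptor Mrc1 was at 10.4, 9.60 and 9.61 CPM in wild-type mice and at 12.2, 13.8 and 12.6 CPM in knockout mice (log2 fold change 0.38 ± 0.10, edgeR adjusted p = 0.968). The complement C1q genes C1qa, C1qb and C1qc, expressed by tissue macrophages, had log2 fold changes of 0.24, 0.34 and 0.33, and Tyrobp, a signalling adaptor of myeloid cells, of 0.29. Of these 5 genes, C1qa alone overlapped between the groups. Cd68 and Csf1r, which also mark macrophages, had log2 fold changes of -0.14 and -0.03, and Cd68 was at 8.74, 13.9 and 16.0 CPM against 12.8, 11.3 and 11.1 CPM.

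Among 13 genes of antigen presentation and dendritic cells, H2-DMa, which helps load peptides onto MHC class II, was at 7.75, 7.82 and 8.65 CPM against 10.6, 9.37 and 10.4 CPM (0.33 ± 0.11, edgeR adjusted p = 0.968). H2-Aa, a class II chain, was at 71.5, 49.8 and 62.7 CPM against 64.1, 65.0 and 53.0 CPM. Lymphocytes were scarce. The B cell receptor component Cd79a was at 1.49, 0.555 and 0.626 CPM against 2.05, 0.698 and 0.952 CPM. Ms4a1, which encodes the B cell protein CD20, is among the deleted genes. Only 2 of 14 B cell intervals lay inside 2-fold, so a difference of that size in most of these genes was not detectable at this depth. The list also holds Ebf1, which sensory neurons express. The T cell genes Cd3e and Cd3d stayed at or below 0.426 CPM in all 6 mice.

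Immunoglobulin genes varied widely among mice of 1 genotype. Igha was at 51.0, 2.33 and 5.80 CPM in wild-type mice and at 52.8, 18.0 and 28.5 CPM in knockout mice, with wild-type replicate 1 inside the knockout range. Ighm was at 32.3, 19.6 and 7.40 CPM against 16.7, 8.37 and 8.57 CPM (log2 fold change -0.79 ± 0.48, edgeR adjusted p = 0.971). Of the 13 plasma cell genes, 7 had a fitted change above 0 and 6 below, and 3 intervals lay inside 2-fold. The list's median was 0.03, and 1.58 without wild-type replicate 1. The mast cell proteases Cpa3 and Mcpt4 were at or below 0.721 CPM everywhere. All 12 neutrophil and alarmin genes had a fitted change above 0, beside 12012 of all 23225 tested genes. The list's median was 0.59, none had an unadjusted p under 0.05, and 1 of the 12 intervals lay inside 2-fold. These genes share the same libraries and are not independent of each other. S100a8, a calcium-binding alarmin, was at 21.5, 17.5 and 17.2 CPM against 41.8, 21.7 and 18.9 CPM, its highest value being that of knockout replicate 1.

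Of the 17 genes of Toll-like receptor signalling, Wdfy1 was the only one called, and 13 intervals lay inside 2-fold. Tlr3 was at 13.3, 13.4 and 12.2 CPM in wild-type mice and at 10.8, 13.9 and 10.8 CPM in knockout mice. Tlr4 was at 15.2, 16.1 and 14.7 CPM against 12.5, 13.5 and 13.2 CPM (log2 fold change -0.24 ± 0.09, edgeR adjusted p = 0.968), and its groups did not overlap. Ticam1, which encodes TRIF, was at 13.7, 8.21 and 10.6 CPM against 8.52, 13.8 and 8.82 CPM, with an interval from -0.57 to 0.42. Tlr7, a sensor of single-stranded RNA, was at 0.995, 1.50 and 0.683 CPM against 1.35, 2.89 and 1.75 CPM.

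Interferon-stimulated genes, which lie downstream of these receptors, had a median of 0.04, and -0.19 without the gland-rich libraries. In that setting 3 of 18 were lower (16.7%, beside 4.31% of all genes) and 1 was higher (5.56%, beside 4.39%) at an unadjusted p under 0.05. Ifit1 was at 57.6, 48.8 and 54.6 CPM against 46.3, 44.1 and 35.8 CPM (-0.35 ± 0.10, edgeR adjusted p = 0.968), and Ifit2 at 21.8, 22.4 and 23.4 CPM against 20.7, 21.7 and 19.1 CPM. Isg15 was at 3.20, 3.72 and 3.53 CPM against 2.41, 4.29 and 4.01 CPM. In the complement list, C2 had a log2 fold change of 0.27 ± 0.10 and C3 of -0.07 ± 0.21.

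Genes of glia, stroma and blood varied between libraries of a genotype. The glial list had 3 genes with an unadjusted p under 0.05, all above 0 (25%, beside 2.25% of all genes), Npy and Frzb among them. When the gland-rich libraries were left out, 2 of the 12 were higher (16.7%, beside 4.39% of all genes), and the list's median went from 0.16 to 0.05. Npy, a neuropeptide of ensheathing glia, was at 1.78, 1.61 and 1.59 CPM against 3.11, 6.58 and 1.80 CPM, and Frzb, a secreted Wnt antagonist of these cells, at 5.26, 6.71 and 4.55 CPM against 7.36, 15.9 and 7.92 CPM, both highest in knockout replicate 2. The endothelial genes had 9 of 9 intervals inside 2-fold, with Pecam1 at 8.03, 10.2 and 8.42 CPM against 9.22, 8.97 and 10.7 CPM.

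Col1a1, a collagen of fibroblasts and bone, was at 1066, 2226 and 2953 CPM in wild-type mice and at 1620, 1445 and 1696 CPM in knockout mice, so the wild-type mice spread beyond the knockout mice on both sides. The bone gene Ibsp was at 104, 180 and 209 CPM against 127, 121 and 129 CPM. With all mice, no bone and cartilage gene had an unadjusted p under 0.05. Of 10 fibroblast genes only Mgp did, above 0 (0.26 ± 0.11, edgeR adjusted p = 0.968). The medians were -0.09 and 0.05. Without the gland-rich libraries, 5 of 10 bone and cartilage genes and 4 of 10 fibroblast genes were lower at that limit, beside 4.31% of all genes. None was called, and 1 bone and cartilage gene was higher. The fibroblast list summed to 3767 CPM in wild-type replicate 1, which that setting leaves out, and to 6746 and 8150 CPM in the other wild-type mice. The skeletal muscle list summed to 44.3 CPM in wild-type replicate 2 and 387 CPM in knockout replicate 3 and to less than 1 CPM in the other 4 mice. Its median of 2.90 became -4.87 without that knockout mouse and 6.82 without that wild-type mouse. Hemoglobin genes were highest in knockout replicate 2, where Hbb-bs was at 797 CPM against 249 to 348 CPM in the other 5 mice. The median of the hemoglobin and erythroid list was 0.61, and 0.13 without the gland-rich libraries.

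**Figure D4:**
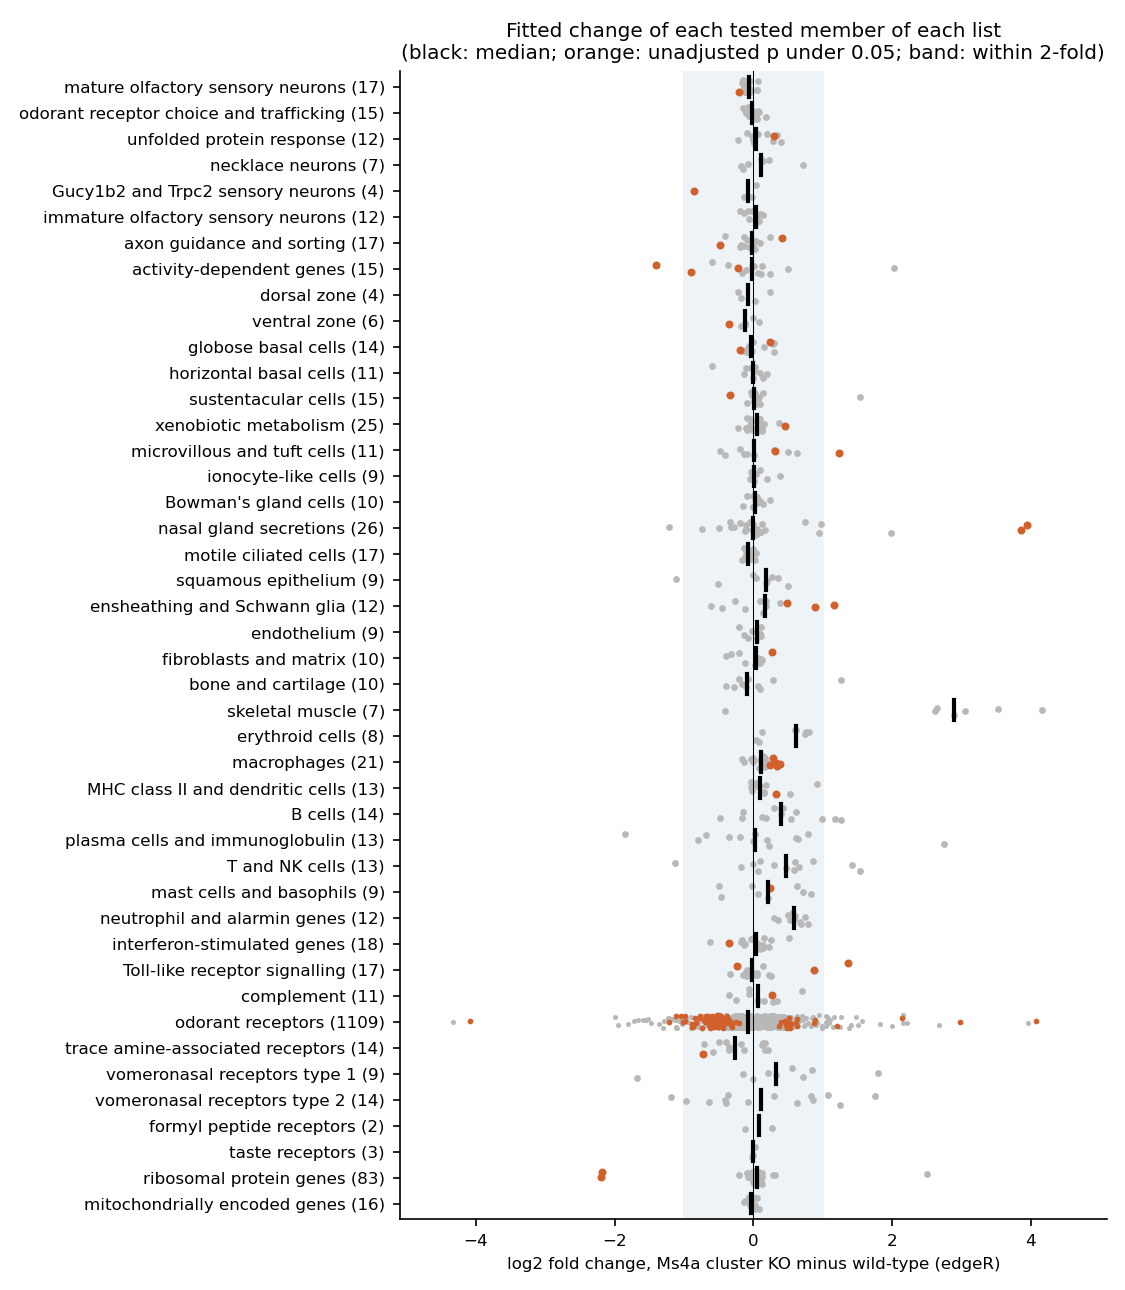
Each point is a tested gene of a list (number tested in brackets), placed by its fitted log2 fold change, with the list's median as a black bar and genes with an unadjusted p under 0.05 in orange. Neuronal, basal and supporting cell lists lie inside the 2-fold band around 0, apart from single genes, and skeletal muscle stands to the right at a median of 2.90, which rests on knockout replicate 3.

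The data also show how much could be held to be level. The 95% interval of the fitted change lay inside 2-fold for 15085 genes outside the deleted span, which is 65% of them. The share grew with level, from 3.1% of genes between 0.1 and 1 CPM to 74.9% between 1 and 10 CPM, 98.6% between 10 and 100 CPM and 97.9% above 100 CPM. Below 0.1 CPM no gene could be held within it. The median distance from the fitted change to the end of its interval was 1.58 in log2 units between 0.1 and 1 CPM and 0.204 between 10 and 100 CPM.

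The 36 cell type and pathway lists hold 438 tested genes between them. Wdfy1 was the 1 called, 21 genes were higher (4.79%) and 11 were lower (2.51%) at an unadjusted p under 0.05, beside 2.25% and 2.68% of all genes, and the median log2 fold change was 0.03. Of the 284 with a mean of at least 10 CPM, 246 had an interval inside 2-fold. The other 38 were for the most part secretory gland, muscle, hemoglobin, immunoglobulin and neutrophil genes, with the immediate early gene Nr4a1 (65.1, 53.1 and 54.1 CPM against 31.2, 47.0 and 36.6 CPM) and Wdfy1 among them. Ribosomal protein genes had 79 of 83 intervals inside 2-fold and mitochondrially encoded genes 15 of 16.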

How the data were processed

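RNA-seq was performed on the main olfactory epithelium of 9 mice, 3 per genotype. Per the labels, directional poly-A libraries were made with the NEBNext Ultra II kit. Per the submitters' processing notes, the tools were STAR 2.6.1, RSEM 1.3.1, R 4.0.0 and DESeq2 1.30.1 with genome build mm10. The authors deposited RSEM expected counts (estimated counts per gene) with no normalization, 55291 genes in all. Groups and replicate numbers came from the sample titles.

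Here each expected count was rounded. Genes reaching 10 counts over the 9 mice were TMM-scaled, and a single edgeR model took all mice (edgeR 4.0.16 in R 4.3.3, quasi-likelihood test, Benjamini-Hochberg adjustment, threshold 0.05). Standard errors are the log2 fold change over the square root of F, and 95% intervals use the t quantile. For 13 genes no interval could be computed. DESeq2 1.42.0 was an alternative, and figures used Python 3.11 and matplotlib 3.10.9. The edgeR script was tested on simulated data. Positions came from a GENCODE annotation of the same build and matched 99.6% of genes.

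The comparison and the gene lists were chosen with earlier results of these data known. Named genes were those past the adjusted threshold with edgeR or DESeq2, the 10 largest differences in each direction among genes with a mean of at least 1 CPM, an unadjusted p under 0.01 and groups that do not overlap, and in each list the first 2 tested genes and up to 3 with the smallest unadjusted p under 0.05. A few genes that the rule names are not reported here. Names outside this rule were chosen after their values were seen. Alternatives were DESeq2's size factors, other count filters, the 2 compared genotypes alone, the replicate block, Xist as a covariate, other thresholds, DESeq2 and leaving out each mouse. Leaving out the 2 gland-rich libraries and a gland transcript (Bpifb9b) as a covariate were added after the data were seen. Ranges between mice of a genotype include any technical spread.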

Additional observations from a re-analysis of the deposited data

How the results depend on the processing

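Wdfy1 was called under all 15 alternatives, with a log2 fold change between 1.30 and 1.45 and an adjusted p between 1.54e-37 and 0.0262. The number of genes called, 6 in the deposited set of 9 mice, was 18 with DESeq2, 3 at an adjusted p under 0.01, and 3 to 7 with 1 mouse left out, the 3 coming without wild-type replicate 2 or 3. With the replicate number as a block it was 2. Same-numbered wild-type and knockout mice did not deviate together (correlations -0.612, -0.415 and -0.153 over 16529 genes), so the numbers are not taken to pair the mice. The count of genes whose groups do not overlap was 9366 without the gland-rich libraries, where 2 mice meet 2, against 2289. Genes held within 2-fold numbered 14309 to 14833 with 1 mouse left out. Outside the span and besides Wdfy1, edgeR called Olfr1183 and Gm37206 with no filter, Rn7s1 with the 2 genotypes alone, Olfr44 without wild-type replicate 1 and, with Alad, without the gland-rich libraries, and Olfr1183 with a gland covariate. No called gene changed direction. Of the medians of lists, 29 moved by more than the spread and 601 did not, and the cause was not tested. Leaving out a mouse leaves groups of 2 and 3. Genes under 1 CPM are limited by depth.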

Other observations

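Several genes outside the naming rule differed among mice in steps, and they are given as values chosen after they were seen. Alad, the second enzyme of heme synthesis, was at 89.4, 47.6 and 47.6 CPM in wild-type mice and at 156, 47.2 and 104 CPM in knockout mice (log2 fold change 0.75 ± 0.36, edgeR adjusted p = 0.968). Its neighbour Hdhd3 was at 8.18, 3.99 and 3.75 CPM against 12.7, 4.29 and 9.72 CPM, so the same mice were high for both, and the ratio of Alad to Hdhd3 was 10.7 to 12.7 in the 6 mice. In the Ms4a6c KO mice it was 20.8, 18.3 and 15.0. Both lie on chromosome 4, with Alad from 62509169 to 62519918 and Hdhd3 from 62499008 to 62503467 (GRCm38). The next genes on either side did not step with them. Bspry was at 26.1, 27.9 and 27.8 CPM against 31.0, 26.7 and 28.0 CPM, and Pole3 at 40.2, 36.0 and 37.2 CPM against 39.4, 36.8 and 36.5 CPM. Without the gland-rich libraries Alad had a log2 fold change of 1.45 (edgeR adjusted p = 0.0346).

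Nnt, the mitochondrial transhydrogenase, was at 13.3, 7.27 and 7.51 CPM in wild-type mice and at 14.5, 15.1 and 14.4 CPM in knockout mice (0.65 ± 0.21, edgeR adjusted p = 0.968), with 13.9, 12.0 and 15.7 CPM in the Ms4a6c KO mice. Wild-type replicate 1 lay near the knockout mice. The labels give no substrain of C57BL/6, and whether the mice differ in substrain, or in the number of gene copies of Alad and Hdhd3, was not tested. The pituitary hormone genes Prl and Gh were present in part of the libraries. Prl was at 0, 338 and 21.6 CPM in wild-type mice and at 0, 0 and 0.952 CPM in knockout mice, and Gh at 0.213, 131 and 20.4 CPM against 0, 0 and 6.47 CPM. Their part in any result was not tested.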
